A study of Mus musculus with 14 samples.

Results

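The genes described are 10 inhibitors of SMAD signalling, taken by name as a set: the inhibitory SMADs Smad7 and Smad6, the ubiquitin ligases Smurf1 and Smurf2, the ligase adaptor Spsb1, the membrane proteins Bambi and Pmepa1, and the nuclear corepressors Ski, Skil and Tgif1. All 10 were found among the 40853 gene identifiers of the deposited tables, and all 10 had a mean of at least 1 TPM (transcript abundance scaled to gene length and to the same total in every library), the level from which 12927 genes were tested. They were named by function, with no threshold on measured values, but with earlier results of these data known. In this pathway a ligand of the TGFβ family joins type II and type I receptor kinases, the type I receptor phosphorylates receptor SMADs, and these enter the nucleus with SMAD4 and act on target genes. Several targets encode proteins that block the receptor, remove it, hold the SMADs away from it or silence SMAD-bound genes, which makes the pathway limit itself. In the lens, TGFβ is known to turn epithelial cells towards a fibroblast-like state, as in some forms of cataract.

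The data were RNA sequencing of αTN4-1, an epithelial line from mice that carried a viral T antigen under the αA-crystallin promoter in the lens. From it 7 stable lines were made and held under neomycin: WT-CREB and S133A-CREB, KCREB and S133A-KCREB, R314A-CREB and S133A/R314A-CREB, each pair without and with S133A, and the control line Vector. CREB is a transcription factor of cAMP signalling, S133A takes away its main phosphorylated serine, R314A changes its leucine zipper, and KCREB is a dominant negative form that does not bind DNA. From each line came 1 control library and 1 library of cells given TGFβ at 20 ng/mL for 24 h in serum-free medium, 14 in all. Whether control cells were also kept without serum is not stated in the labels, so the agent and the loss of serum cannot be told apart. No line and treatment had a second library, and whether a line is 1 clone or a pool is not stated. The 7 lines therefore served as replicates for TGFβ, and p-values measure the spread between lines.

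Libraries held 12545 to 13081 genes at 1 TPM or more. Read totals were not given, and depth was read from the per-base coverage at an FPKM of 1, which ran from 5.05 to 10.08. Creb1 stood at 20.8 TPM (control) and 23.1 TPM (TGFβ) in Vector, at 25.8 to 38.3 TPM in the lines labelled KCREB and S133A-KCREB, and at 4.43 to 11.6 TPM in the other 4 lines labelled for CREB. It went against the label in those 4, so every line name below is a label and no more. Which species the construct came from is not stated, so these values may miss its reads. Of 14 lens epithelial markers 10 averaged at least 1 TPM, among them Pax6, Six3, Sox2 and Cryab, while Foxe3, Cdh1 and Gja1 did not exceed 0.249 TPM in any library. These markers summed to 1050 to 3779 TPM in control and 846 to 1682.5 TPM with TGFβ, and 7 of them fell. Of 12 macrophage markers 3 averaged at least 1 TPM, with Lyz2 at 8.38 to 86.8 TPM and with Adgre1, C1qa and C1qb at 0 throughout, and their sum was 25.3 to 89.3 TPM in control and 14.4 to 42.4 TPM with TGFβ. Of those 3, Csf1r and Cd68 rose, and Lyz2, which makes up most of the sum, fell. Markers of lens fiber summed to at most 38.6 TPM, of muscle to 30.8, of endothelium to 3.64 and of neuron and retina to 0.881 TPM, with Crybb2, Lim2, Myf5, Myod1 and Myog at 0. The part of these shifts in the changes below was not tested.

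TGFβ-treated and control cells were compared first, across the 7 lines. Pmepa1, Spsb1, Skil, Smad7, Tgif1, Smurf2 and Ski rose, and Bambi, Smurf1 and Smad6 did not pass the test in either direction. That is 7 of 10 genes higher (limma blocked by line, with p adjusted over all tested genes to a threshold of 0.05), where 24.1% of all tested genes were higher, and 0 of 10 lower, where 21.4% were lower. The median change of the 10 genes was 0.52 on the log2(TPM + 1) scale, against 0.02 over all tested genes. This scale, used below for each log2 change unless another is named, understates the change of low genes. Of the 10 genes, 6 were higher in all 7 lines, as were 18.5% of all tested genes. For Smad7, Pmepa1 and Spsb1 every TGFβ library lay above every control library, which held for 1.45% of tested genes.

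**Figure D1:**
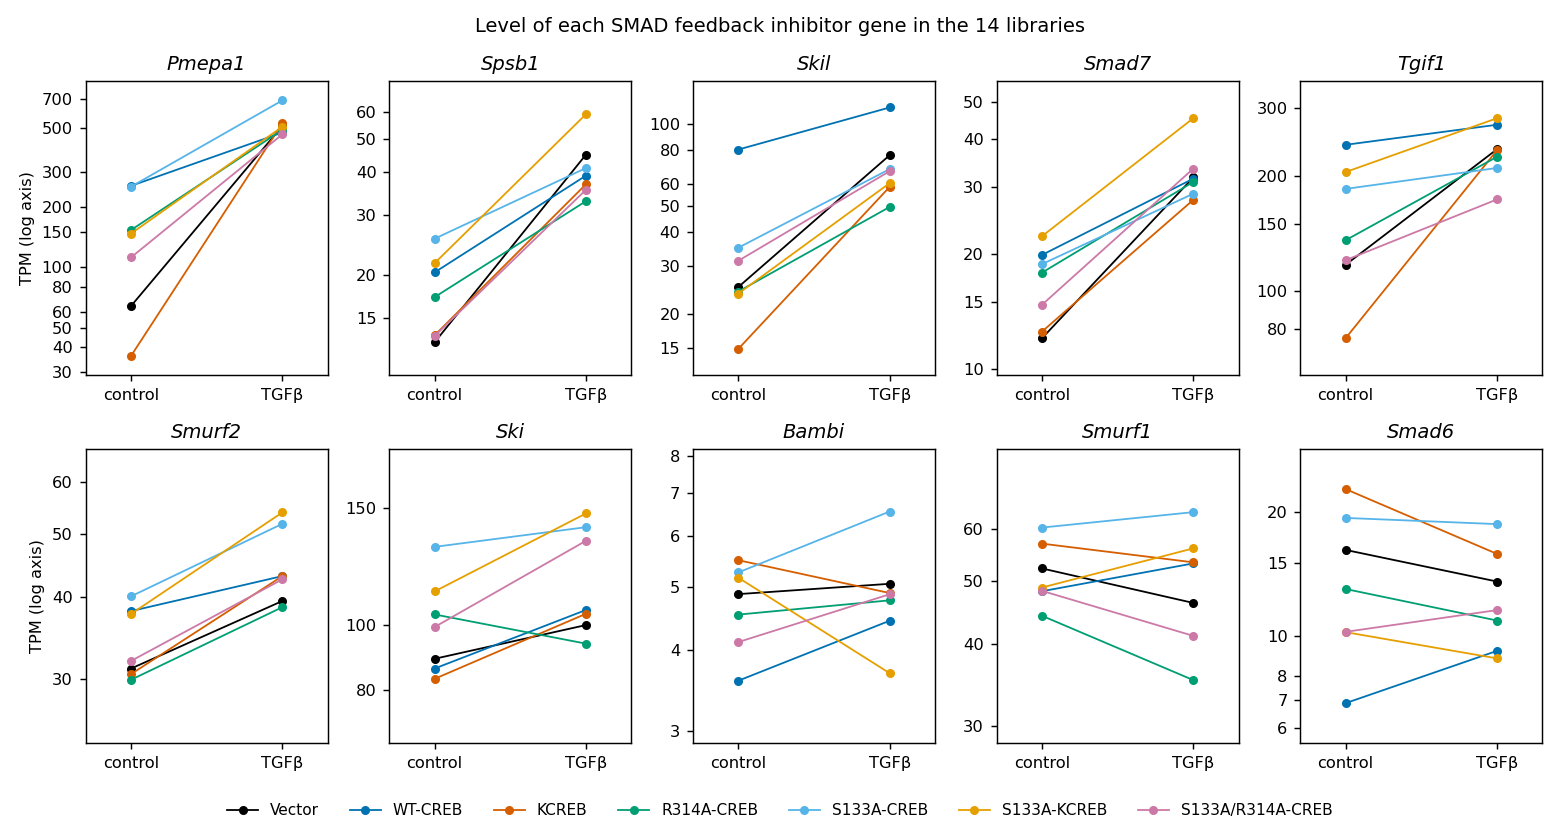
TPM (log axis, scaled per panel) of each of the 10 genes in the control and the TGFβ library of each line, 1 point per library, joined within a line. Pmepa1 lies between 36.0 and 256 TPM in control and between 465 and 687 TPM with TGFβ, while Bambi, Smurf1 and Smad6 cross without a shared direction.

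Among the inhibitory SMADs, which occupy activated type I receptors, Smad7 rose and Smad6 did not. Smad7 (chromosome 18, 75500436 to 75529006, GRCm39, plus strand) acts on both the TGFβ and the BMP arm. Its control level ran from 12.1 TPM in Vector through a median of 17.9 to 22.3 TPM in S133A-KCREB. With TGFβ it ran from 27.7 TPM in KCREB through a median of 31.5 to 45.3 TPM in S133A-KCREB, so the groups did not overlap, and S133A-KCREB was highest in both. The change was 0.93 ± 0.09 (SE, 7 lines, limma, adjusted p = 1.93e-04), higher in 7 of 7 lines, from 0.59 in S133A-CREB to 1.32 in Vector.

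Smad6 (chromosome 9, 63860358 to 63929374, minus strand) acts mainly on the BMP arm. Control libraries ran from 6.90 TPM in WT-CREB through a median of 13.0 to 22.7 TPM in KCREB, and TGFβ libraries from 8.84 TPM in S133A-KCREB through 11.6 to 18.6 TPM in S133A-CREB. The ranges overlapped almost fully. Its change was -0.10 ± 0.10 (95% interval -0.32 to 0.12, limma, adjusted p = 0.450), with 2 lines higher and 5 lower. WT-CREB, the line with the least Smad6 in control, had the highest difference (0.37), and KCREB, with the most, the lowest (-0.49). Each difference is taken from that same single control library, so the 2 are not independent and no pattern can be read from them.

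Promoter windows of 300 bases (250 before to 50 after a RefSeq start, assembly GRCm38.p6) were found for 6 of the 10 genes, 10 windows in all since Tgif1 has 5. Skil and Pmepa1 had no entry, and the windows of Smad7 and Bambi were not analysed here. Each was searched on both strands for the SMAD box CAGAC, the 8-base SMAD palindrome GTCTAGAC, the cAMP response element TGACGTCA and its TGACG half-site, which lies within it, and the AP-1 site TGANTCA. Of 32851 windows of that length, CAGAC occurred in 49.6%, GTCTAGAC in 0.213%, TGACGTCA in 1.79%, TGACG in 20.8% and TGANTCA in 7.81%. In the 10 windows of these genes, CAGAC occurred in 5 and GTCTAGAC in 1, and the other motifs in 0. A match is a string in this window and nothing more, and a window without one says nothing of the factor. The window with the palindrome, in capitals from position -4 to 3 around the start base (position 0), belonged to Smad6, which did not rise with TGFβ (chr9:64022010-64022309, minus strand, printed 5′ to 3′).
Smad6: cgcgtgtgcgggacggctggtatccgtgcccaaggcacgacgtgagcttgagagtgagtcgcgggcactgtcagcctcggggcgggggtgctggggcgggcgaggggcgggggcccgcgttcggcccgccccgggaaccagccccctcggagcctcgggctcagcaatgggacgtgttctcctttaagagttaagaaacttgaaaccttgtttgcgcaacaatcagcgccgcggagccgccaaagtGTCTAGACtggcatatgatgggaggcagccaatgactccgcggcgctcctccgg

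The ligases Smurf1 and Smurf2 are related HECT-type enzymes that inhibitory SMADs bring to the receptor, and Smurf2 rose while Smurf1 did not. Smurf2 (chromosome 11, 106710887 to 106811544, minus strand) ran in control from 29.9 TPM in R314A-CREB through a median of 32.0 to 40.1 TPM in S133A-CREB. With TGFβ it ran from 38.6 TPM in R314A-CREB through 43.1 to 53.9 TPM in S133A-KCREB. The groups overlapped, with 5 of 7 TGFβ libraries above every control library. The rise was small and even, 0.37 ± 0.05 (limma, adjusted p = 5.34e-04), from 0.17 in WT-CREB to 0.50 in S133A-KCREB.

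Smurf1 (chromosome 5, 144813305 to 144902657, minus strand) ran from 44.2 to 60.4 TPM in control, with a median of 48.9, and from 35.2 to 63.8 TPM with TGFβ, with a median of 53.2. R314A-CREB was lowest and S133A-CREB highest under both conditions. The change was -0.06 ± 0.07 (95% interval -0.21 to 0.10, limma, adjusted p = 0.523), higher in 3 lines and lower in 4. The promoter windows of the pair are shown because 1 gene rose and the other did not. Each holds CAGAC at 2 places, in capitals (as GTCTG where it lies on the other strand), for Smurf1 starting at -192 and -145 (chr5:144965781-144966080, minus strand) and for Smurf2 at -203 and 27 (chr11:106920666-106920965, minus strand).
Smurf1: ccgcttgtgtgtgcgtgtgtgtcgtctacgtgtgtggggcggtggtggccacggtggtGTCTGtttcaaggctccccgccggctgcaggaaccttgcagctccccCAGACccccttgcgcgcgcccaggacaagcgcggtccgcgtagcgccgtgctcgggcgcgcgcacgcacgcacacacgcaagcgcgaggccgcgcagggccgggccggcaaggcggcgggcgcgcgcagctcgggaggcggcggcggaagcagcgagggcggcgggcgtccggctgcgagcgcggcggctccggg
Smurf2: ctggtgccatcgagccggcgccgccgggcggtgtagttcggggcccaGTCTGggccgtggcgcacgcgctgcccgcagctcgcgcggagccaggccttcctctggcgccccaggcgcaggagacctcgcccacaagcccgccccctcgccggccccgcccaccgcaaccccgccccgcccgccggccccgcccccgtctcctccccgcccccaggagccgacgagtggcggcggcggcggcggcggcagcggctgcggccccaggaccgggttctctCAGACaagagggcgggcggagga

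Spsb1 (chromosome 4, 149980740 to 150039463, minus strand) encodes a SOCS-box adaptor known to direct the type II receptor to degradation. In control it ran from 12.7 TPM in Vector through a median of 17.2 to 25.5 TPM in S133A-CREB. With TGFβ it ran from 32.9 TPM in R314A-CREB through 39.0 to 59.1 TPM in S133A-KCREB, so that the groups did not overlap. Spsb1 rose by 1.20 ± 0.12 (limma, adjusted p = 1.99e-04), between 0.67 in S133A-CREB and 1.75 in Vector. Its promoter window is shown as one of a gene that rose and that held none of the motifs searched, so it has no capitals (chr4:149954957-149955256, minus strand).
Spsb1: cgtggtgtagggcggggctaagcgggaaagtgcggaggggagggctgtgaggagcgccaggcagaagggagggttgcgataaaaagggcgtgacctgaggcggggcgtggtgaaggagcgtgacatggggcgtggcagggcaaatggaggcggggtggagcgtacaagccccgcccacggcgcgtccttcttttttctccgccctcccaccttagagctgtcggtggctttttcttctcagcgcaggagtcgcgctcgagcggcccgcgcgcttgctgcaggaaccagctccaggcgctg

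At the membrane, Pmepa1 rose and Bambi did not. Pmepa1 (chromosome 2, 173066251 to 173118524, minus strand) encodes a protein that binds receptor SMADs and keeps them from the receptor. Its control libraries ran from 36.0 TPM in KCREB and 64.0 TPM in Vector, through a median of 148, to 254 TPM in S133A-CREB and 256 TPM in WT-CREB. With TGFβ, 6 of the 7 lines stood between 465 and 527 TPM, and S133A-CREB stood at 687 TPM. The lines were thus far apart in control and close together with TGFβ, with an SD of log2 TPM of 1.04 before and 0.19 after. Pmepa1 had the largest change of the 10, 2.09 ± 0.30 (limma, adjusted p = 8.42e-04), and the TGFβ to control ratio of TPM ran from 1.85 in WT-CREB to 14.7 in KCREB.

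Bambi (chromosome 18, 3507011 to 3516404, plus strand) encodes a pseudoreceptor that lacks the kinase domain. It was the lowest of the genes, at 3.59 TPM in WT-CREB to 5.51 TPM in KCREB in control (median 4.88) and 3.68 TPM in S133A-KCREB to 6.56 TPM in S133A-CREB with TGFβ (median 4.88). Its per-base coverage was 5.77 to 16.8, against 81.9 to 2015 for Pmepa1. A change of 0.04 ± 0.09 was measured (95% interval -0.17 to 0.25, limma, adjusted p = 0.754), with 5 lines higher and 2 lower.

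All 3 nuclear corepressors rose, by very different amounts. Skil (chromosome 3, 31149122 to 31177072, plus strand) encodes SnoN, which binds SMAD complexes and silences their targets. In control 6 lines stood between 14.9 and 35.1 TPM and WT-CREB stood at 80.3 TPM. With TGFβ 6 lines stood between 49.5 and 76.6 TPM and WT-CREB at 114.6 TPM. WT-CREB was therefore apart under both conditions, and its control level alone made the groups overlap. Skil rose by 1.19 ± 0.14 (limma, adjusted p = 3.79e-04), from 0.51 in WT-CREB to 1.91 in KCREB.

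Ski (chromosome 4, 155238532 to 155306992, minus strand), the related proto-oncogene, ran from 83.1 TPM in KCREB through a median of 99.4 to 131 TPM in S133A-CREB in control. With TGFβ it ran from 93.9 TPM in R314A-CREB through 105.5 to 147 TPM in S133A-KCREB. Its change of 0.22 ± 0.07 passed narrowly (limma, adjusted p = 0.0246), with R314A-CREB lower (-0.14) and 6 lines higher. The call was lost by the exact Wilcoxon signed-rank test (adjusted p = 0.0936), with no filter on low genes in limma (adjusted p = 0.067), and without WT-CREB, KCREB, S133A-KCREB or S133A/R314A-CREB (adjusted p = 0.0512, 0.0589, 0.0681 and 0.0675).

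Tgif1 (chromosome 17, 71151200 to 71160527, minus strand) encodes a homeodomain protein that recruits histone deacetylases to SMADs. In control it ran from 75.5 TPM in KCREB through a median of 136 to 241 TPM in WT-CREB, and with TGFβ from 174 TPM in S133A/R314A-CREB through 233 to 283 TPM in S133A-KCREB. The groups overlapped, and 2 TGFβ libraries lay above every control library. Tgif1 rose by 0.67 ± 0.16 (limma, adjusted p = 0.00741), from 0.17 in WT-CREB and 0.18 in S133A-CREB to 1.61 in KCREB. Its per-base coverage was 0.343 times what its FPKM corresponds to, against 0.76 to 1.00 times for the other genes, and with coverage, scaled to 1 total, in place of TPM the log2 change was 0.66 (limma, adjusted p = 0.0108). Without the line as a block the call of Tgif1 was lost (limma, adjusted p = 0.0643).

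**Figure D2:**
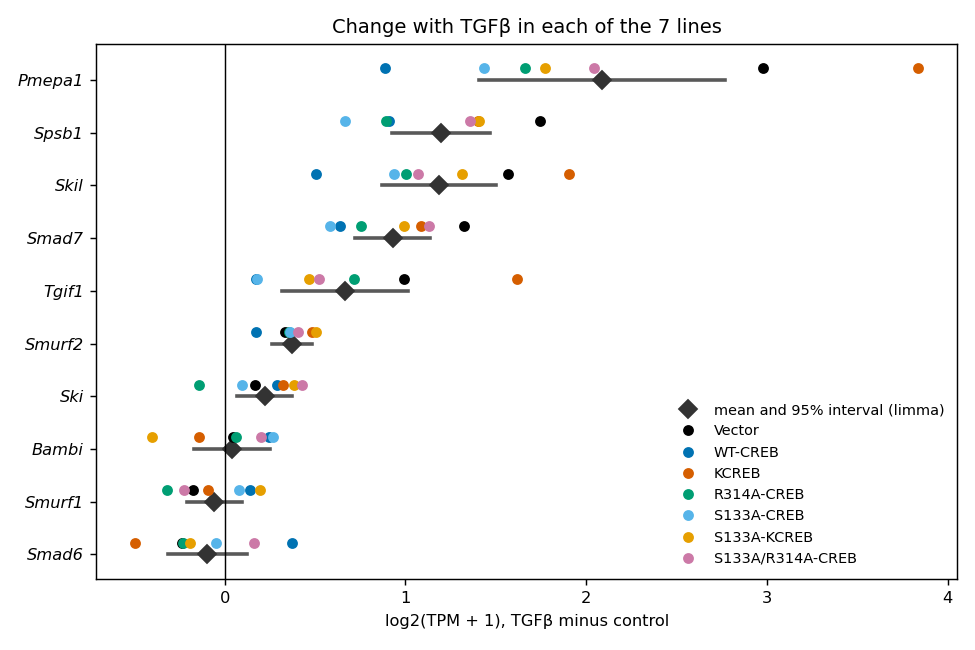
Difference between the TGFβ and the control library of each line in log2(TPM + 1), 1 point per line, with the mean and its 95% interval from limma, for the 10 genes. The means run from -0.10 for Smad6 to 2.09 for Pmepa1, and the intervals of Bambi, Smurf1 and Smad6 include 0.

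TPM is scaled per length, so the genes can be set in order of level. By mean control TPM (± SD, 7 lines) the order was Tgif1 (154 ± 57.8), Pmepa1 (146.3 ± 85.5), Ski (101 ± 17.0), Smurf1 (51.3 ± 5.64), Smurf2 (34.2 ± 4.26), Skil (33.5 ± 21.6), Spsb1 (17.7 ± 4.97), Smad7 (16.9 ± 3.86), Smad6 (14.1 ± 5.59) and Bambi (4.73 ± 0.69). From Tgif1 to Ski and from Smurf2 to Smad6, neighbours in this order differed by less than the larger SD of the pair, and the other steps were wider. The place of Tgif1 and the steps beside it are uncertain, here and in the order with TGFβ, since its coverage was low for its FPKM, as given above. With TGFβ the order was Pmepa1 (523 ± 75.6), Tgif1 (233 ± 36.8), Ski (118 ± 21.9), Skil (70.7 ± 21.2), Smurf1 (49.9 ± 9.64), Smurf2 (44.7 ± 5.90), Spsb1 (41.3 ± 8.74), Smad7 (32.8 ± 5.84), Smad6 (12.6 ± 3.59) and Bambi (4.90 ± 0.86). Here neighbours from Skil to Smad7 differed by less than the larger SD of the pair, and the other steps were wider.

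Each of 3 pairs of related genes shifted towards 1 member. The ratio of Smad7 to Smad6 in TPM ran from 0.554 to 2.89 in control (median 1.38) and from 1.54 to 5.12 with TGFβ (median 2.83), a change of 1.07 ± 0.51 in the log2 ratio of plain TPM (SD, 7 lines). For Skil to Ski the ratio ran from 0.179 to 0.932 (median 0.267) and from 0.411 to 1.09 (median 0.527), a change of 0.99 ± 0.48. For Smurf2 to Smurf1 it ran from 0.535 to 0.790 (median 0.665) and from 0.807 to 1.10 (median 0.854), a change of 0.44 ± 0.24. Every ratio rose in 7 of 7 lines. An exact two-sided permutation test of signs gave p = 0.0156 for each, also after adjustment over the 3 pairs, the smallest p that 7 lines allow. Smad7, Skil and Smurf2, the upper gene of each ratio, had each risen in 7 of 7 lines by themselves. The test therefore largely repeats those rises and is no separate support. It was not among the planned tests, and how often ratios of other gene pairs rise in all lines was not tested.

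**Figure D3:**
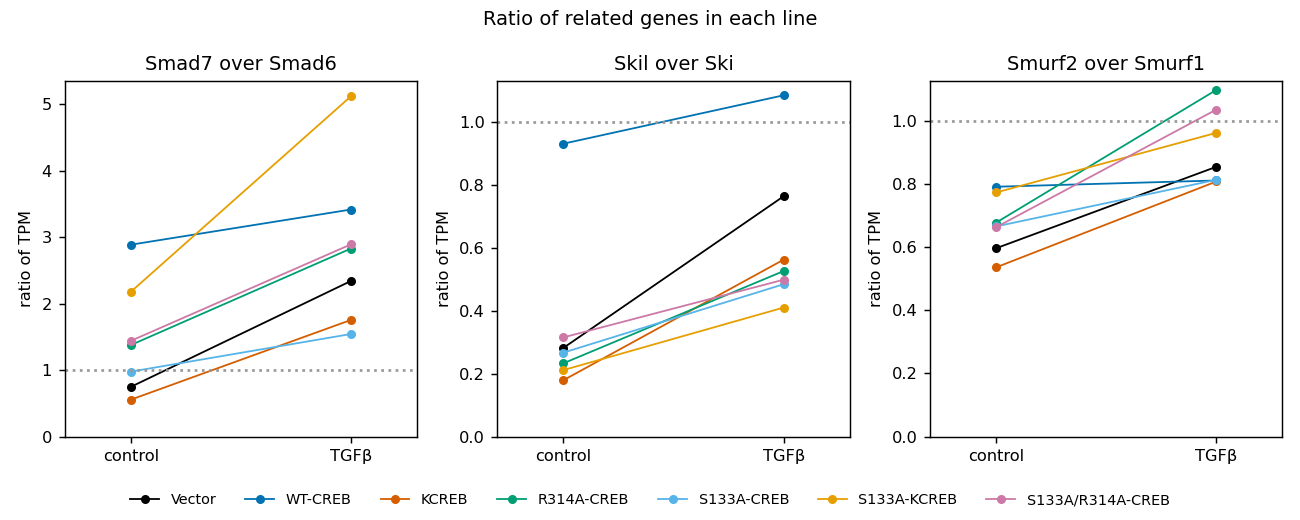
Ratio of TPM within 3 related pairs in control and TGFβ libraries of each line, with a dotted line at equal levels. Smad7 exceeded Smad6 in all 7 TGFβ libraries, where the lowest ratio was 1.54, while Skil exceeded Ski in WT-CREB alone, at 1.09.

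The lines differed in level more in control than with TGFβ for 7 of the 10 genes, as for 56.4% of all tested genes. The ratio of the highest to the lowest line (as TPM + 1) was 6.96 in control and 1.48 with TGFβ for Pmepa1, 5.11 and 2.29 for Skil, 3.16 and 1.62 for Tgif1, and 2.995 and 1.996 for Smad6. These were the 4 genes with a ratio of at least 2 in control, where 33.4% of tested genes reached it, and Skil was the 1 gene of the set that reached it with TGFβ, where 30.6% did. Ratios of the other 6 genes lay between 1.33 and 1.94. Over all tested genes the median ratio was 1.72 in control and 1.68 with TGFβ, and over the 10 genes 1.86 and 1.62. No test was made of these single libraries.

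**Figure D4:**
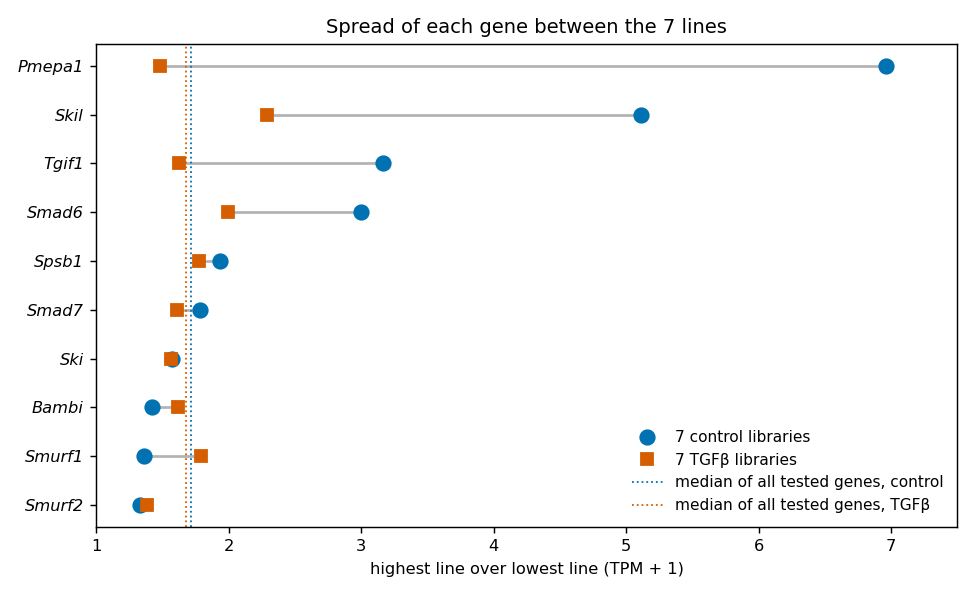
Ratio of the highest to the lowest of the 7 lines, as (TPM + 1), in control (circles) and TGFβ libraries (squares) for each gene, with dotted medians over all tested genes (1.72 and 1.68). Pmepa1, Skil and Tgif1 stand far to the right in control and move to 1.48, 2.29 and 1.62.

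Among the 7 genes that rose, the order of lines in control was not the order with TGFβ. In control WT-CREB was highest for Pmepa1, Skil and Tgif1, S133A-CREB for Spsb1, Smurf2 and Ski, and S133A-KCREB for Smad7. KCREB was lowest for Pmepa1, Skil, Ski and Tgif1, and Vector for Smad7 and Spsb1. With TGFβ S133A-KCREB was highest for 5 of the 7 and R314A-CREB lowest for 4. The change was largest in KCREB for 3 genes and in Vector for 2, and smallest in WT-CREB for 4 and in S133A-CREB for 2. Each change is taken from the control library of its line, so it is not independent of the order in control.

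In single lines the change could be given as values but not tested. In KCREB 5 of the 10 genes were at least 1.5-fold higher with TGFβ (as TPM + 1), where 10.8% of tested genes were, in Vector 5 (7.29%) and in R314A-CREB 5 (7.1%). The count was 4 in S133A-KCREB (6.3%), in S133A/R314A-CREB (6.12%) and in S133A-CREB (4.14%), and 3 in WT-CREB (2.87%). Lines with fewer genes of the set past this fold thus also had fewer genes past it in all. Pmepa1, Spsb1 and Smad7 passed it in all 7 lines, Skil in all but WT-CREB, and Tgif1 in Vector, KCREB and R314A-CREB. The median change of the 10 genes ran from 0.31 in S133A-CREB and 0.33 in WT-CREB to 0.66 in Vector and 0.78 in KCREB, while the median of all tested genes lay between -0.008 and 0.05.

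**Figure D5:**
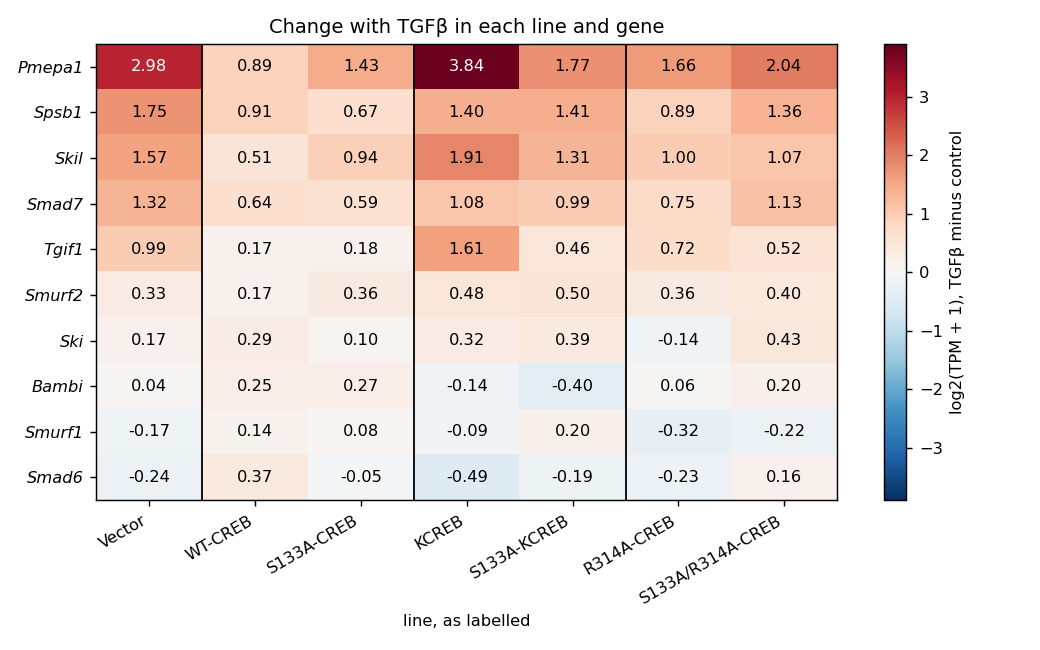
Change with TGFβ in log2(TPM + 1) for each gene (rows) and line (columns, Vector first, then by type of CREB construct), 1 pair of libraries per cell. Pmepa1 changes by 3.84 in KCREB and 0.89 in WT-CREB, and Bambi is below 0 in KCREB and S133A-KCREB alone, at -0.14 and -0.40.

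The CREB constructs were compared over the 6 CREB lines. S133A was taken as the 3 lines labelled for it minus their 3 counterparts. K was taken as KCREB and S133A-KCREB minus WT-CREB and S133A-CREB. R314A was taken as R314A-CREB and S133A/R314A-CREB minus the same WT-CREB and S133A-CREB lines, which the K and R314A comparisons thus share. With 2 residual degrees of freedom, limma called none of the 10 genes in any of these 3 comparisons of mean level or in the 3 interactions with TGFβ, and none of the 12927 tested genes (0% in each of the 6). With 12 CREB libraries fitted singly and the line as a random block, 28 of all tested genes were called for S133A, 139 for K and 6 for R314A on level, and again none of the 10. A construct differs only between the 6 lines, and the 2 libraries of a line are not replicates of it. The calls of that fit are therefore not read as construct effects. At an unadjusted p under 0.05 in the fit on 6 lines the counts were 1 of 10 for S133A on level (5.81% of tested genes), 2 for K (10.1%) and 0 for R314A (6.36%). For the interactions with TGFβ they were 0 for S133A (3.54%), 4 for K (10.8%) and 1 for R314A (6.37%).

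For K, the differences in mean level nearest to the threshold were those of Skil and Pmepa1. KCREB and S133A-KCREB minus WT-CREB and S133A-CREB gave -1.004 ± 0.38 for Skil (95% interval -1.97 to -0.04, limma, adjusted p = 0.471). For Pmepa1 the difference was -0.97 ± 0.31 (-1.76 to -0.17, limma, adjusted p = 0.433). Neither passed over all genes. The same difference in the change with TGFβ was 1.64 ± 0.63 for Pmepa1 (0.06 to 3.23, limma, adjusted p = 0.454), 0.88 ± 0.25 for Skil (0.26 to 1.51, adjusted p = 0.406), 0.86 ± 0.28 for Tgif1 (0.15 to 1.57, adjusted p = 0.417) and 0.62 ± 0.20 for Spsb1 (0.11 to 1.12, adjusted p = 0.417). These 4 differences did not pass over all genes either. The lines labelled K were unlike each other for Pmepa1, with 3.84 in KCREB and 1.77 in S133A-KCREB, the latter below the 2.04 of S133A/R314A-CREB. In control Pmepa1 was at 36.0 and 148 TPM in KCREB and S133A-KCREB, against 256 and 254 TPM in WT-CREB and S133A-CREB. With TGFβ the levels were 527 and 507 TPM, against 474 and 687 TPM. The differences in mean level and in change share these control libraries and are not independent.

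For R314A the difference nearest to the threshold was in the response of Smurf1, -0.38 ± 0.14 (-0.72 to -0.04, limma, adjusted p = 0.766). Smurf1 was lower with TGFβ in R314A-CREB (-0.32) and S133A/R314A-CREB (-0.22) and higher in WT-CREB (0.14) and S133A-CREB (0.08). Outside this comparison Smurf1 was also lower in Vector (-0.17) and KCREB (-0.09), which are not labelled R314A, and higher in S133A-KCREB (0.20). For S133A it was the mean level of Ski, with a difference of 0.40 ± 0.13 between lines labelled with and without it (0.07 to 0.73, limma, adjusted p = 0.809). The intervals of the other differences include 0. Their lowest bound was -1.73, for R314A on the mean level of Skil, and their highest 2.27, for R314A on the change of Pmepa1. Some were far narrower, such as -0.17 to 0.34 for S133A on the change of Smurf2. Values inside an interval remain possible for that gene and comparison alone.

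The rest of the pathway was described from 6 lists of other genes, for which shares can be read against the 24.1% higher and 21.4% lower of all tested genes. Of 19 receptors and SMADs 16 were tested, of which 4 rose and 6 fell (median change 0.03). Acvr1, a type I receptor that acts mainly for BMP ligands, rose by 0.87 ± 0.11 (limma, adjusted p = 4.36e-04). Tgfbr3, the co-receptor betaglycan, fell by 0.84 ± 0.14 (limma, adjusted p = 0.00139). Smad3, a receptor SMAD of the TGFβ arm, fell by 0.62 ± 0.10 (limma, adjusted p = 0.00138). Smad2, the other receptor SMAD of that arm, did not pass (-0.09 ± 0.04, limma, adjusted p = 0.0952) and was named after its value was seen. Of 24 ligands and extracellular antagonists 14 were tested, of which 3 rose and 7 fell (median -0.12). Among them were the ligands Tgfb2, which rose by 0.84 ± 0.07, Tgfb1, which rose by 0.68 ± 0.12, and Inhbb, the inhibin and activin βB chain, which fell by 0.69 ± 0.13 (by 0.45 with a pseudocount of 5). Smad3 thus fell in the same libraries in which Tgfb1 and Tgfb2 rose.

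Of 23 other regulators of SMAD and receptor turnover all 23 were tested, of which 10 rose and 4 fell (median 0.11). Ldlrad4, a membrane protein related to Pmepa1 that also binds SMADs, rose by 0.83 ± 0.10 (0.46 with coverage in place of TPM), and Trim33, a ligase acting on SMAD4, by 0.65 ± 0.06. Cav1, the caveolin of the membrane route by which receptors are removed, fell by 0.75 ± 0.09. Of 21 other corepressors and partners 20 were tested, of which 7 rose and 1 fell (median 0.09). The partners Atf3 (1.22 ± 0.21), Runx1 (0.84 ± 0.09) and Jun (0.81 ± 0.11) had the largest rises.

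Of 29 SMAD3 target genes outside the inhibitors 26 were tested, of which 15 rose and 2 fell (median 0.59, where the 10 inhibitors had 0.52). Tgfbi, an extracellular matrix protein, rose by 2.51 ± 0.44, the cytokine Lif by 2.28 ± 0.31 (1.38 with a pseudocount of 5) and Ccn2, connective tissue growth factor, by 2.20 ± 0.24. The 2 that fell were Acta2, smooth muscle actin (-1.07 ± 0.17), and Ccn1 (-0.36 ± 0.12), both named after their values were seen. Of 15 target genes of BMP and SMAD1 or SMAD5, 8 were tested, of which 4 rose and 0 fell (median 0.29). The homeobox gene Msx1 rose by 0.48 ± 0.13, Gata2 by 0.31 ± 0.06 and Id1, an inhibitor of helix-loop-helix factors, by 0.39 ± 0.13, the last in 5 of 7 lines. The call of Id1 was lost in 8 of 19 alternatives (adjusted p up to 0.522).

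Likeness to single genes was measured as Pearson's r over the 14 libraries after the mean of each treatment was taken away. Smad7 was most like Abtb2 (r = 0.97), Afap1 (0.95) and Tead2 (0.92). Skil was most like Slc43a2 (0.96), Vps50 (0.94) and Fnbp1l (0.93), Pmepa1 most like Has2 (0.94), Scyl2 (0.91) and Tpsab1 (0.91), and among the genes most like Bambi were Slc30a1 (0.87) and Copz2 (0.84). The 14 values share 7 lines and the depth of their libraries, and for Skil they include the WT-CREB pair that stands apart, so no p is given.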

How the data were processed

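RNA of 14 cultures of αTN4-1 lines was sequenced, and groups were taken from the sample titles. The genome build GRCm39 and the tools edgeR, StringTie 2.0.4 and STAR 2.7.6a are those in the submitters' processing notes, which give them no roles. Not given in the sources used here are the annotation release and strandedness, so overlapping genes on opposite strands could not be told apart. Tables hold TPM, FPKM and per-base coverage (signal) of each gene, deposited by the authors, per the file headers. There are no counts. Libraries list 19322 to 22145 genes at 0, where the estimate may have failed, and mitochondrial genes held 5.59% to 10.8% of TPM.

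Values sharing a gene identifier were summed, and 12927 genes with a mean over the 14 libraries of 1 TPM or more were fitted as log2(TPM + 1) in R 4.3.3, limma 3.58.1 (intensity trend, line as a block, Benjamini-Hochberg adjustment over these genes, threshold 0.05, two-sided). The scripts were run on simulated data as a check of the code. For the construct fits the simulated lines did not differ in level of their own, unlike the lines here. That check therefore says nothing of how those fits perform on these data. CREB constructs were fitted on line means and on line differences. The line label pairs the 2 libraries of a line, and as a check their deviations from treatment means correlated with r of 0.614 to 0.845, against at most 0.371 between lines. Named were all 10 inhibitors, in each list the 3 genes with the largest change among those called whose mean reached 5 TPM, and for 4 inhibitors the 3 genes most like them, of which 1 is not reported here. The 10 genes and the lists were chosen with earlier results of these data known. The permutation test of the ratios of related genes was run in scipy 1.17.1. Alternatives were other pseudocounts (0.1, 5), filters, scalings, FPKM, no trend, no block, lines left out, a signed-rank test (in R), other fits of the constructs (statmod 1.5.0) and, chosen after seeing the data, coverage in place of TPM.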

Additional observations from a re-analysis of the deposited data

Results flagged for a closer look

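Of 30 groups of 7 values (levels in control, levels with TGFβ and changes of the 10 genes), 4 held a library whose gap to its nearest neighbour was large against the range of the group by Dixon's test at the 95% level, where chance marks about 1 group in 20. They were Skil in WT-CREB, with 80.3 TPM in the control library and 114.6 TPM in the TGFβ library, Smad7 in S133A-KCREB with TGFβ, at 45.3 TPM, and Pmepa1 in S133A-CREB with TGFβ, at 687 TPM.

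Smurf1 and Bambi moved in opposite directions in different CREB lines. They were picked for this split of signs from among all the inhibitors and CREB comparisons. With 2 lines in each group compared here, such a split can arise by chance. How often it arises by chance, or over all tested genes, was not tested. The mean log2 change of Smurf1 was -0.27 in the 2 lines labelled R314A and 0.11 in WT-CREB and S133A-CREB. Smurf1 was also lower in Vector (-0.17) and KCREB (-0.09), which are not labelled R314A, and higher in S133A-KCREB (0.20). The mean log2 change of Bambi was -0.27 in KCREB and S133A-KCREB and 0.26 in WT-CREB and S133A-CREB. The interactions did not pass over all genes (limma, adjusted p = 0.766 and 0.477).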

How the results depend on the processing

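The count of inhibitors that rose was 7, and 6 with no filter and without WT-CREB, KCREB, S133A-KCREB or S133A/R314A-CREB, each time by the loss of Ski. With no replicate block it was 5, since Tgif1 (limma, adjusted p = 0.0643) and Ski (adjusted p = 0.302) were lost. None fell under any alternative, and the change lay between -0.17 and -0.03 for Smad6, -0.10 and -0.01 for Smurf1, and 0.002 and 0.11 for Bambi. Of 189 comparisons of single inhibitors with their alternatives, 181 kept direction and side of the threshold, 8 lost the call (7 of Ski, 1 of Tgif1) and 0 reversed. Without the block, 645 of all tested genes rose and 519 fell, against 3110 and 2762 with it, and Inhbb, Tgfb1, Cav1, Jun, Msx1, Id1 and Gata2 also lost their calls. Median-of-ratios scaling gave 2836 and 2974, and no scaling moved the median of all genes by over 0.1.

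No inhibitor was called for a CREB construct in any alternative. Over all genes the 12-library fit with the line as a random block called 28 for S133A, 139 for K and 6 for R314A. The 2 libraries of a line are not replicates of a construct, so these calls are not read as construct effects. Without a term for the other mutations 4 were called for S133A on level. On level, leaving out WT-CREB or S133A-CREB left only the other of them to compare K and R314A with, so counts of those fits are not given. In the response, leaving out R314A-CREB called 15 for K, and leaving out S133A/R314A-CREB called 15 for K. Fits with a line left out had fewer than the 2 residual degrees of freedom of the main fit, so these calls are weak. Depth limits Bambi most, at a per-base coverage of 5.77 in its lowest library.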
